A study of Mus musculus with 7 samples.

Results

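The genes for ionotropic and metabotropic glutamate receptors and their auxiliary subunits were compared between 4 CKO and 3 WT samples of mouse whole neocortex. The list held 33 genes and was drawn up by receptor family, with earlier results of these data known. It comprised 4 AMPA, 1 delta, 5 kainate and 6 NMDA receptor subunits, 7 metabotropic receptors and 10 auxiliary subunits. A probe set with that gene as its 1 symbol stood for 32 of them, and 31 passed a filter on dim probe sets, among 16144 genes tested in all. Grin1, the obligatory NMDA receptor subunit, is not analysed here. Grm8, a presynaptic metabotropic receptor, had a probe set but lay below the filter. No probe set listed a member together with other symbols, and Cacng2 was the 1 member with a second probe set.

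The CKO samples carried a genotype that the labels give as COUP-TFI with Nex-Cre. The labels do not spell out the COUP-TFI allele. The WT samples were labelled wild type. All 7 samples were of strain C57BL/6, with an RNA integrity number of 10 and an RNA input of 0.2 µg, and each was hybridised to 1 array. The sources used here do not give the animals' age or sex, or whether each array came from a separate animal. The p-values therefore reflect the spread from sample to sample only, and part of that may be technical. COUP-TFI, encoded by Nr2f1, is a nuclear receptor with a known role in cortical area patterning. Nex-Cre is expressed from Neurod6, a gene of newly postmitotic excitatory neurons, so a deletion driven by it leaves out interneurons, progenitors and most glia. Arrays are named by group and by the number in their labels.

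Glutamate is the main excitatory transmitter of the neocortex. AMPA receptors carry its fast current, NMDA receptors add a slower, calcium-permeable current that depends on coincident depolarisation, and kainate receptors act on both sides of the synapse. Metabotropic receptors signal through G proteins, with Grm5 coupled to phospholipase C and Grm2, Grm3, Grm4, Grm6, Grm7 and Grm8 coupled to inhibition of adenylyl cyclase. Transmembrane AMPA receptor regulatory proteins (the Cacng genes), cornichons (the Cnih genes) and the Neto proteins bind to receptors and set their trafficking and gating.

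No receptor or auxiliary subunit gene passed an adjusted p of 0.05 between CKO and WT. Of all genes tested 0.0248% passed, 0.0124% with higher and 0.0124% with lower signal in CKO. The smallest adjusted p among the 31 members was 0.69, for Grm7 (limma over all genes). Values are log2 signals and differences are CKO minus WT, so a difference of 1 is a doubling. The differences of the members lay between -0.30 for Grin2a and 0.18 for Grm4, with a median of -0.02, beside a median of 0.01 over all genes tested. Of the 31, 16 were negative (51.6%, against 41.1% of all genes tested) and 15 were positive. An unadjusted p under 0.05 was reached by 4 members (12.9%), namely Grm7, Gria4 and Grik1 with lower and Grm4 with higher signal in CKO, where 6.79% of all genes reached it (4.17% higher and 2.61% lower). The CKO arrays lay wholly to one side of the WT arrays for 3 members (9.68%), namely Grm7 and Gria4 below and Grm4 above, where 8.38% of all genes did so (5.39% above and 2.99% below). In whole tissue, fewer cells of a type and less RNA per cell cannot be told apart.

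**Figure D1:**
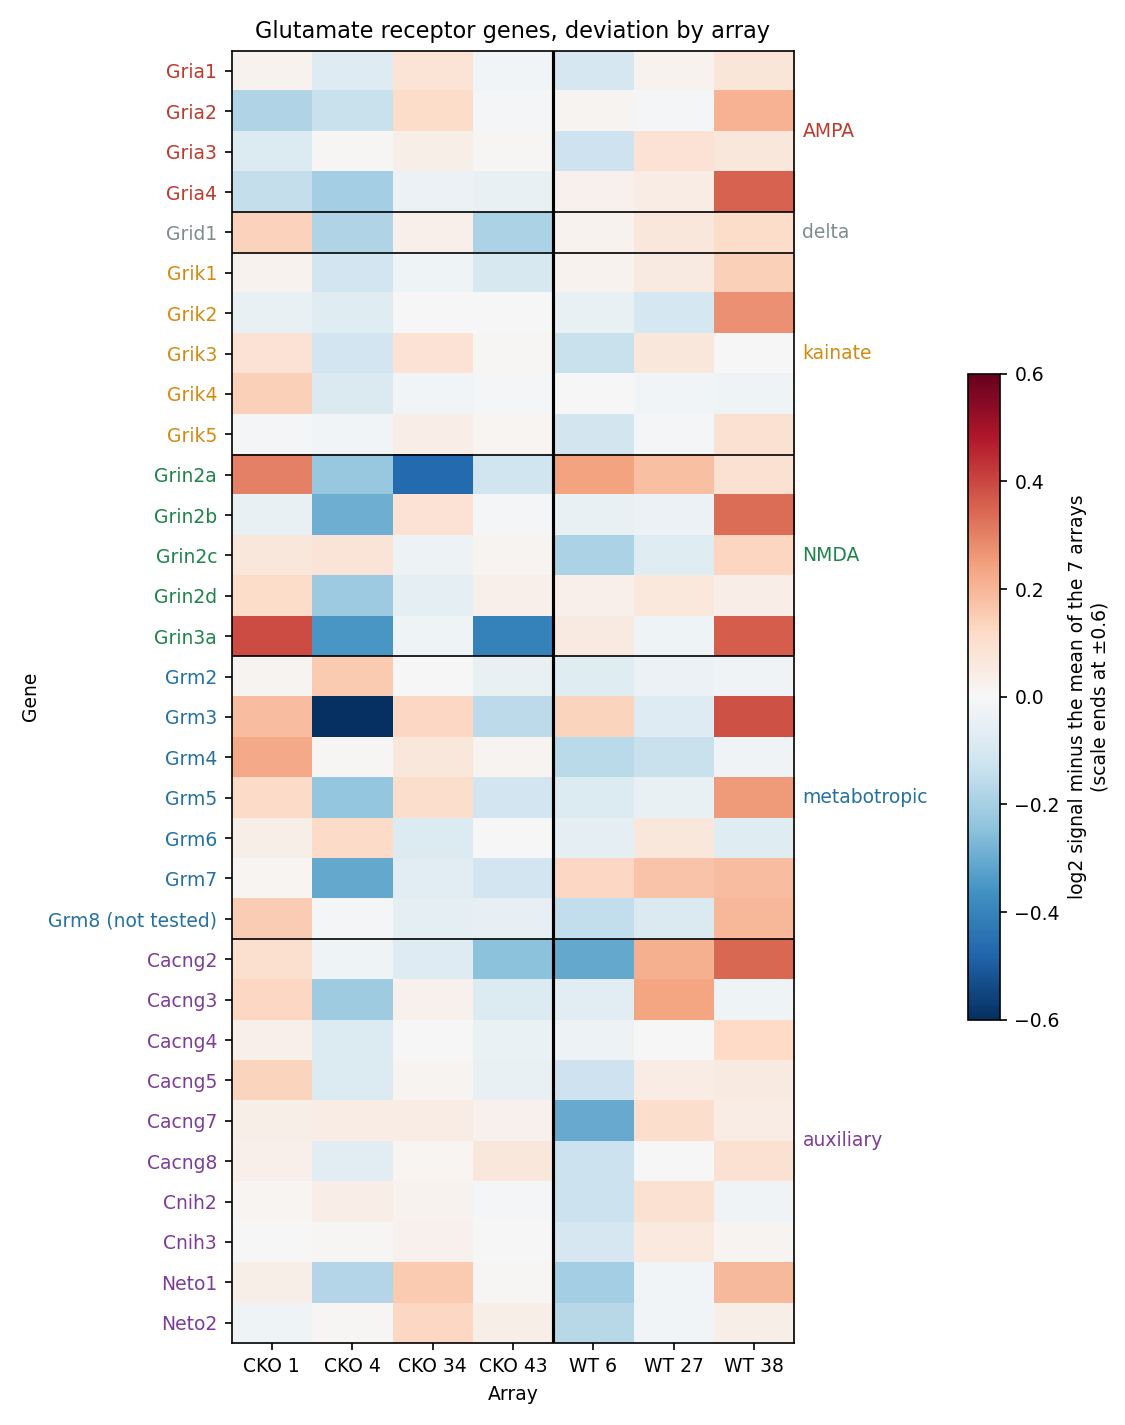
Deviation of each of the 32 measured genes from its mean over the 7 arrays, as a colour from blue (lower) to red (higher), with the 4 CKO arrays left of the line and the 3 WT arrays right of it. Genes run down the page by receptor class. The WT 38 column is red for most classes and WT 6 is blue for most auxiliary subunits, while Grm7 is blue or near white on the CKO arrays and red on all WT arrays.

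On the average over the members, the arrays within a group differed from each other by more than the group means did. WT 38 was the highest of the 7 arrays for 14 of the 31 members (45.2%), against 15.7% of all genes tested. WT 6 was the lowest for 15 members (48.4%, against 21.7% of all genes), and CKO 4 for 10 (32.3%, against 10.4%). CKO 43 and WT 6 were the highest for no member. Averaged over the 31 members, the deviation from the mean of the arrays was 0.06, -0.11, 0.01 and -0.05 on CKO 1, CKO 4, CKO 34 and CKO 43, and -0.06, 0.03 and 0.12 on WT 6, WT 27 and WT 38. The group means of these deviations were -0.02 in CKO and 0.03 in WT, and the group ranges overlapped. Differences were also computed without each array. The median of the members, -0.02 over all arrays, was 0.02 without WT 38, 0.01 without WT 27 and -0.09 without WT 6, so leaving out WT 38 and leaving out WT 6 moved it in opposite directions. Without any 1 CKO array it lay between -0.04 and -0.01. Without WT 38 the number with a negative difference was 13 of 31 (41.9%, against 46.9% of all genes), and 0 members passed by limma, against 0.00619% of all genes. The members with an unadjusted p under 0.05 were then Grm7 and Gria4 (lower in CKO) and Grm4 and Grin2c (higher), or 12.9% beside 10.9% of all genes (5% higher and 5.9% lower). Those 4 genes also had groups that did not overlap (12.9% of the 31). Of all genes, 11.7% lay apart with higher and a further 10.5% with lower signal in CKO, so the share among the members was the smaller.

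Nr2f1 had log2 signals of 10.63, 10.79, 10.60 and 10.70 on CKO 1, CKO 4, CKO 34 and CKO 43, against 11.08, 11.16 and 10.88 on WT 6, WT 27 and WT 38. The groups did not overlap, with a difference of -0.36 (SE 0.0738, adjusted p 0.435 by limma). Whether the probe set lies in the deleted part is not known here. Neurod6, the driver's locus, had 12.59, 12.72, 12.65 and 12.69 on the CKO arrays, against 12.77, 12.97 and 12.83 on the WT arrays, a difference of -0.20 (SE 0.0567, adjusted p 0.711).

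The AMPA receptor genes, whose subunits form the fast excitatory channels, gave differences between -0.25 and 0.00, with a median of -0.07. The median was -0.02 without WT 38, -0.12 without WT 6 and -0.11 without CKO 34. Gria4 encodes the subunit GluA4. Its signal was 9.60, 9.54, 9.71 and 9.70 on CKO 1, CKO 4, CKO 34 and CKO 43, against 9.77, 9.79 and 10.10 on WT 6, WT 27 and WT 38. All CKO arrays lay below all WT arrays, by a gap of a few hundredths between CKO 34 and WT 6, and WT 38 stood well above the other WT arrays. The CKO mean was 9.64 ± 0.0793 (SD, n = 4), which is 0.841 of the WT signal, and the WT mean was 9.89 ± 0.187 (SD, n = 3). The difference of -0.25 (SE 0.0857) had an adjusted p of 0.711 by limma over all genes. Without WT 38 it was -0.14 (SE 0.0555, adjusted p 0.441), and the groups still did not overlap.

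Gria2, whose edited transcript makes AMPA receptors impermeable to calcium, had 12.20, 12.25, 12.49 and 12.37 on CKO 1, CKO 4, CKO 34 and CKO 43, against 12.40, 12.37 and 12.59 on WT 6, WT 27 and WT 38. The groups overlapped, since CKO 34 lay above WT 6 and WT 27. The difference of -0.12 had a 95% interval of -0.31 to 0.06, and without WT 38 it was -0.06. Gria1 and Gria3, the subunits GluA1 and GluA3, had differences of 0.00 (interval -0.12 to 0.13) and -0.02 (interval -0.16 to 0.11), or 0.04 and 0.01 without WT 38. For both of them WT 6 was the lowest array, at 11.15 for Gria1 and 10.96 for Gria3.

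Grid1 encodes the delta receptor GluD1, which binds cerebellins and organises synapses more than it conducts. Its signal was 9.36, 9.04, 9.25 and 9.03 on CKO 1, CKO 4, CKO 34 and CKO 43, against 9.24, 9.29 and 9.33 on WT 6, WT 27 and WT 38. CKO 1 was the highest array of all, whereas CKO 4 and CKO 43 lay below every WT array. The difference was -0.12 (SE 0.0844, adjusted p 0.764 by limma), or -0.10 without WT 38.

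Kainate receptor genes showed little difference, with a median of 0.01 over 5 genes, or 0.04 without WT 38 and -0.04 without WT 6. Grik1, the subunit GluK1, had 7.83, 7.69, 7.78 and 7.71 on CKO 1, CKO 4, CKO 34 and CKO 43, against 7.83, 7.86 and 7.95 on WT 6, WT 27 and WT 38. The groups met at CKO 1 and WT 6. The difference of -0.12 (SE 0.0499) had an adjusted p of 0.726 by limma, and was -0.09 without WT 38.

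Grik2, the subunit GluK2, had 11.03, 11.00, 11.07 and 11.07 on the CKO arrays in the same order, against 11.03, 10.97 and 11.35 on WT 6, WT 27 and WT 38. The 6 arrays other than WT 38 lay close together, and the sign of the difference turned with that array: it was -0.08 (SE 0.0832) over all arrays and 0.04 (SE 0.0387) without WT 38. Grik3, the subunit GluK3, had 11.96, 11.76, 11.96 and 11.88 on the CKO arrays, against 11.74, 11.94 and 11.87 on the WT arrays, and the groups overlapped throughout. Its difference was 0.04, with an interval of -0.12 to 0.19. The subunits that need a partner to reach the membrane, Grik4 and Grik5, differed by 0.02 (interval -0.10 to 0.15) and 0.01 (interval -0.10 to 0.13).

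NMDA receptor subunit genes gave the most negative class median of the 5 classes with several members, -0.15 over 5 genes, with 4 of 5 negative. It was -0.08 without WT 38 or without CKO 4, -0.22 without WT 6 and -0.21 without WT 27. Grin2a, the subunit that gains weight after birth in the rodent forebrain, had 7.23, 6.70, 6.46 and 6.81 on CKO 1, CKO 4, CKO 34 and CKO 43, against 7.17, 7.11 and 7.02 on WT 6, WT 27 and WT 38. Of the CKO arrays 3 lay below every WT array and CKO 1 lay above every WT array. The difference of -0.30 (SE 0.153, adjusted p 0.73 by limma) was -0.34 without WT 38. The signal was near the filter of 6.84 below which probe sets were left out, and 3 of the CKO arrays lay under that value.

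Grin2b, the subunit that prevails in the fetal and newborn forebrain, had 11.31, 11.06, 11.44 and 11.34 on the CKO arrays, against 11.31, 11.32 and 11.69 on WT 6, WT 27 and WT 38. CKO 4 was lowest, WT 38 was highest and the other 5 arrays lay between them with the groups mixed. The difference of -0.15 (interval -0.42 to 0.11) was -0.03 without WT 38. Grin3a, which lowers the calcium permeability of NMDA receptors, ranged more widely within CKO than between the group means. Its signal was 8.63, 7.89, 8.21 and 7.83 on CKO 1, CKO 4, CKO 34 and CKO 43, against 8.29, 8.21 and 8.60 on the WT arrays, with a difference of -0.23 (SE 0.188), or -0.11 without WT 38. Grin2c and Grin2d, which are the prevailing partners outside the forebrain principal neurons, differed by 0.08 (SE 0.0729) and -0.08 (SE 0.0724). Without WT 38 the CKO arrays of Grin2c, at 8.12 to 8.23, lay above WT 6 (7.96) and WT 27 (8.08), with a difference of 0.16 (SE 0.0511, adjusted p 0.362 by limma).

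**Figure D2:**
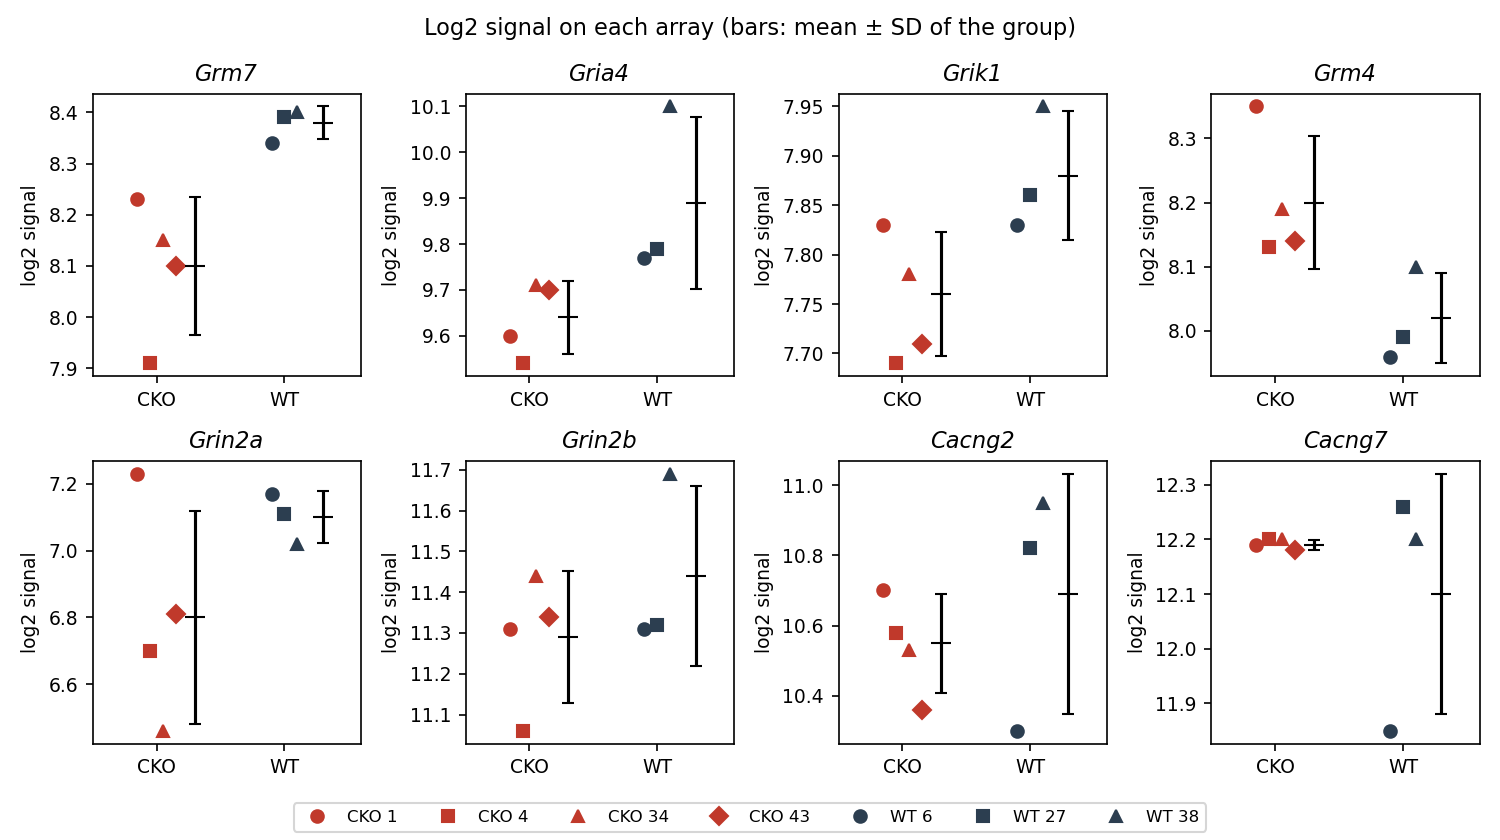
Log2 signal of 8 receptor and auxiliary subunit genes on each array, with CKO arrays at left in red, WT arrays at right in dark blue, and the mean with SD as a bar beside each group. Each vertical axis covers its own range and does not start at 0. CKO lies below WT without overlap for Grm7 and Gria4 and above it for Grm4, while WT 38 is the highest array for Grin2b and Cacng2 and WT 6 the lowest for Cacng2 and Cacng7.

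Metabotropic receptor genes held both the member with the smallest p and the member with the highest difference. Grm7 encodes the low-affinity receptor mGluR7 of presynaptic active zones. Its signal was 8.23, 7.91, 8.15 and 8.10 on CKO 1, CKO 4, CKO 34 and CKO 43, against 8.34, 8.39 and 8.40 on WT 6, WT 27 and WT 38. Every CKO array lay below every WT array, CKO 4 furthest, and the WT arrays lay close together. The CKO mean was 8.10 ± 0.135 (SD, n = 4), which is 0.825 of the WT signal, and the WT mean was 8.38 ± 0.0316 (SD, n = 3). The difference was -0.28 (SE 0.0711, interval -0.44 to -0.11), with an unadjusted p of 0.00429 and an adjusted p of 0.69 by limma. It was -0.27 without WT 38 and -0.27 among the 4 arrays whose identifiers share their leading digits (CKO 34, CKO 43, WT 27 and WT 38), so it was nearly as large without WT 38.

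Grm4, the presynaptic receptor mGluR4, lay higher in CKO. It had 8.35, 8.13, 8.19 and 8.14 on CKO 1, CKO 4, CKO 34 and CKO 43, against 7.96, 7.99 and 8.10 on WT 6, WT 27 and WT 38. All CKO arrays lay above all WT arrays, with CKO 4 and WT 38 nearest to each other. The difference was 0.18 (SE 0.0636), a ratio of 1.14, with an adjusted p of 0.711 by limma, and it was 0.22 (SE 0.0679, adjusted p 0.358) without WT 38.

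Grm5, the postsynaptic receptor mGluR5, had 10.58, 10.23, 10.57 and 10.35 on the CKO arrays, against 10.38, 10.42 and 10.72 on the WT arrays. The CKO arrays fell on both sides of WT 6 and WT 27. The difference of -0.08 (interval -0.33 to 0.17) turned to 0.03 without WT 38. Grm3, a receptor found on both neurons and astrocytes, had 10.15, 9.37, 10.09 and 9.81 on the CKO arrays, against 10.10, 9.89 and 10.35 on the WT arrays. CKO 4 was far below the rest, and the difference of -0.26 had an interval of -0.69 to 0.17 and was -0.14 without WT 38. Grm2, a presynaptic autoreceptor, differed by 0.07 (interval -0.05 to 0.19) and Grm6, the receptor of retinal ON bipolar cells, by 0.04 (interval -0.09 to 0.17). Grm8, which was not tested, had 6.67 to 6.88 in CKO and 6.58 to 6.93 in WT. The class median over the 6 tested genes was -0.02, or 0.02 without WT 38 and -0.06 without WT 6.

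Auxiliary subunit genes had a median of 0.01 over 10 genes, none with groups apart, and WT 6 was the lowest array for 8 of them. Without WT 6 the class median was -0.04 and without WT 38 it was 0.04. Cacng2 encodes stargazin, the founding AMPA receptor regulatory protein. It had 10.70, 10.58, 10.53 and 10.36 on CKO 1, CKO 4, CKO 34 and CKO 43, against 10.30, 10.82 and 10.95 on WT 6, WT 27 and WT 38. WT 6 lay below every CKO array and the other WT arrays lay above every CKO array. The difference was -0.14 (interval -0.48 to 0.20), or -0.01 without WT 38 and -0.34 without WT 6 (adjusted p 0.683 by limma). Among the 4 arrays of the shared identifier group it was -0.43 (adjusted p 0.999). The unadjusted p was under 0.05 in both the fit without WT 6 and the fit within that group. Its second probe set gave 10.28, 10.16, 10.22 and 9.98 on the CKO arrays, against 10.26, 10.58 and 10.45 on the WT arrays. That is a difference of -0.27, or -0.26 without WT 38, with CKO 1 above WT 6.

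Cacng7, a type II regulatory protein, had 12.19, 12.20, 12.20 and 12.18 on the CKO arrays, against 11.85, 12.26 and 12.20 on WT 6, WT 27 and WT 38. All arrays but WT 6 lay close together, and the difference of 0.09 (interval -0.11 to 0.29) rested on that array: it was -0.04 without WT 6. Cacng4, a regulatory protein of the immature brain, had 12.17 to 12.28 in CKO and 12.22 to 12.37 in WT, with a difference of -0.05 (interval -0.16 to 0.07). Cacng3, Cacng8 and Cacng5 differed by -0.08, 0.02 and 0.01, with intervals of -0.31 to 0.14, -0.11 to 0.16 and -0.14 to 0.16.

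The cornichons, which slow the closing of AMPA receptors, varied little. Cnih2 had 13.02, 13.05, 13.03 and 13.00 on CKO 1, CKO 4, CKO 34 and CKO 43, against 12.88, 13.10 and 12.99 on the WT arrays, and the CKO arrays lay inside the WT range. Its difference was 0.03 (interval -0.09 to 0.16). Cnih3 differed by 0.02 (interval -0.09 to 0.12). Neto2, a kainate receptor partner, had 12.46, 12.49, 12.61 and 12.52 on the CKO arrays, against 12.32, 12.47 and 12.52 on the WT arrays. CKO 1 lay below WT 27 and CKO 43 level with WT 38, so the groups overlapped, and the difference of 0.08 (SE 0.0586, adjusted p 0.757 by limma) was 0.12 without WT 38. Neto1, which binds kainate and NMDA receptors, differed by 0.01 (interval -0.22 to 0.25), or 0.12 without WT 38.

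**Figure D3:**
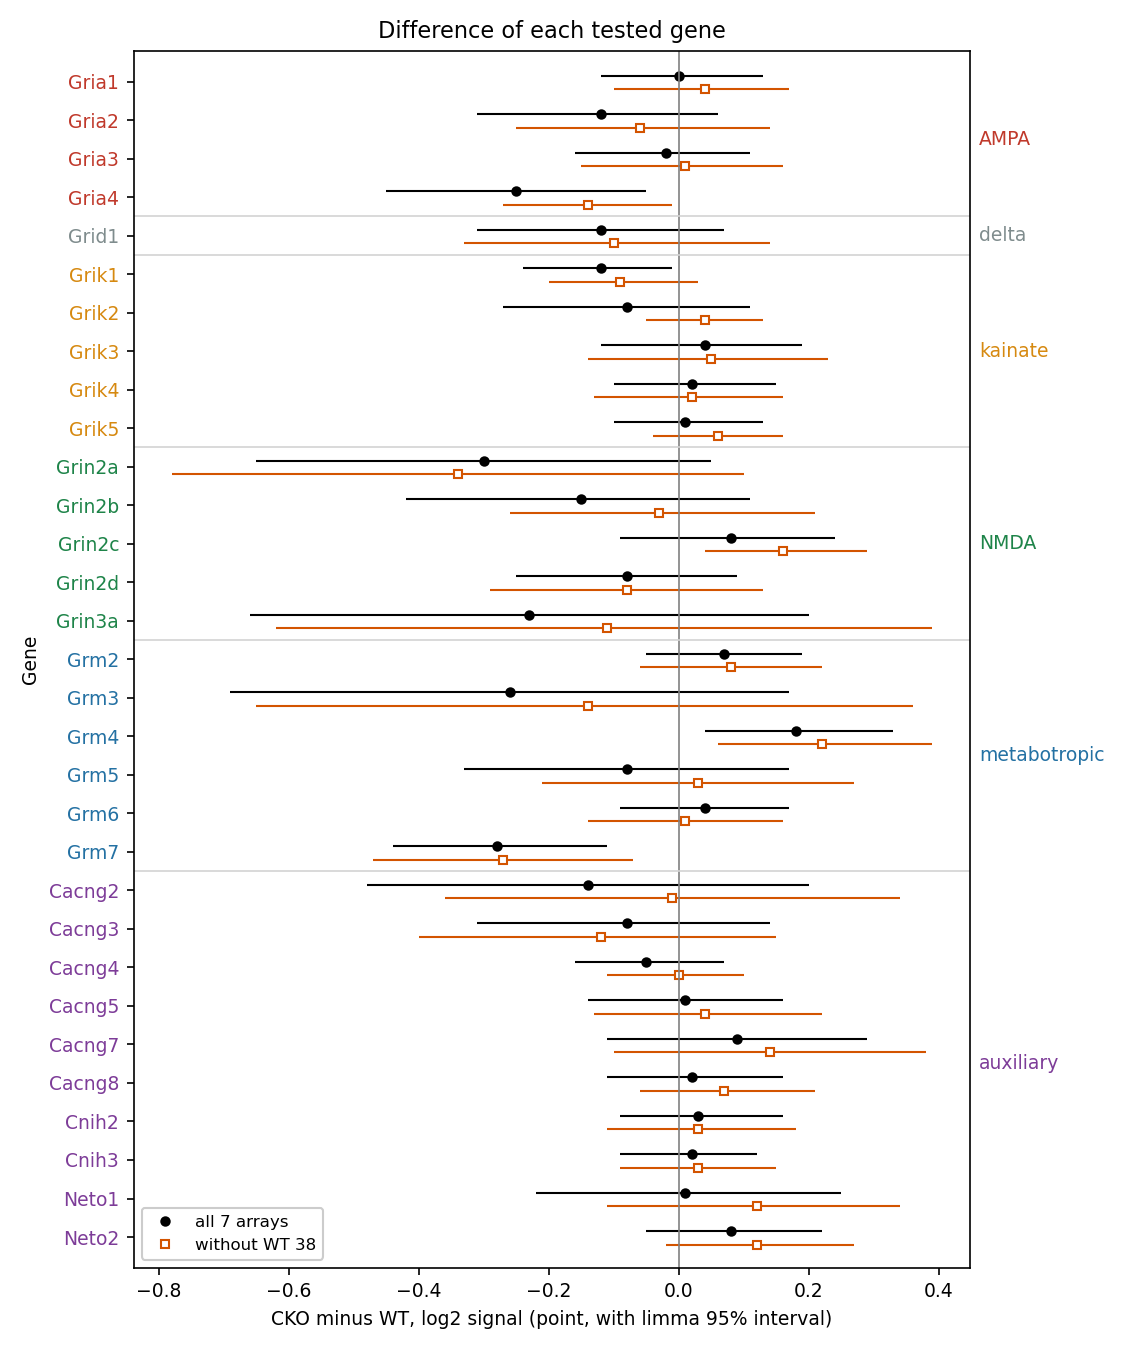
CKO minus WT difference in log2 signal for each of the 31 tested genes, as black circles over all 7 arrays and as open orange squares without WT 38, each with limma's 95% interval. Genes are grouped by class. Over all arrays the intervals of Gria4, Grik1, Grm4 and Grm7 leave out 0, and without WT 38 those of Gria4, Grin2c, Grm4 and Grm7 do. These intervals are not adjusted for the number of genes.

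The promoter windows of 22 of the 33 members were read from the RefSeq-based promoter table (mouse build GRCm38.p6), with 250 bases before and 50 after each annotated start. They were searched on both strands for AGGTCA, the half-site that nuclear receptors including COUP-TFI recognise, and for the motif of the transcription factor NRF1. AGGTCA lay in 3 of 27 member windows (11.1%), against 16.3% of 32851 windows of that length. The 3 windows belonged to Cacng8, Grin2c and Grm8. The NRF1 motif lay in 2 of 27 windows (7.41%), against 4.6% of all, and these belonged to Gria2 and Neto2. No member window held both motifs. The windows of Gria4 and Grm7 are shown because all CKO arrays lay below all WT arrays for these genes, and those of Gria2 and Cacng8 because they hold a match. Capitals mark matches. Gria4 lies at chr9:4796185-4796484 on the minus strand, Grm7 (the first of its 2 windows) at chr6:110645262-110645561 on the plus strand, Gria2 at chr3:80802786-80803085 on the minus strand and Cacng8 at chr7:3393792-3394091 on the plus strand.
Gria4: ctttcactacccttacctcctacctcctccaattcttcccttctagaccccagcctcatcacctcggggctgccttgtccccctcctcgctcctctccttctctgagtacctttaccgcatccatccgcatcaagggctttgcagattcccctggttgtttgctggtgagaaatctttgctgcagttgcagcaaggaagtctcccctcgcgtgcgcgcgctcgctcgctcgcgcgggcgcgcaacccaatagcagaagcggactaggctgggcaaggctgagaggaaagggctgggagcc
Grm7: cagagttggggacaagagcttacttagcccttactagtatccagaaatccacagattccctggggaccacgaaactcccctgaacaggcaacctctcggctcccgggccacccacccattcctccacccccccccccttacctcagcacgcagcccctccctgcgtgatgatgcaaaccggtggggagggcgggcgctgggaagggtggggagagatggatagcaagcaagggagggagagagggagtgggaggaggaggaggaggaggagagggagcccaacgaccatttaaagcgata
Gria2: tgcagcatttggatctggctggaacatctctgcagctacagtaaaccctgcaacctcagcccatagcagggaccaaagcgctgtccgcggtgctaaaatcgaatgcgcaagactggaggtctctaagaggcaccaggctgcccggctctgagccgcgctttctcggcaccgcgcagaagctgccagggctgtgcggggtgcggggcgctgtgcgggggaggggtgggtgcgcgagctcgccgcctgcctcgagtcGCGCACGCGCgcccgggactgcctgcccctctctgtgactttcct
Cacng8: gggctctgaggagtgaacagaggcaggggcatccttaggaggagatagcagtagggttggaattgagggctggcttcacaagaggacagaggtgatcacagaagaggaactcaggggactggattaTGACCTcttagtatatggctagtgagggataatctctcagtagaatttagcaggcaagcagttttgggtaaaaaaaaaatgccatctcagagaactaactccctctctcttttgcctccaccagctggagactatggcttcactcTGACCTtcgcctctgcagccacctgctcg
The windows of Gria4 and Grm7 held neither set of letters. Cacng8, with 2 matches to the half-site, had 9.83, 9.73, 9.81 and 9.87 on the CKO arrays, against 9.67, 9.80 and 9.89 on the WT arrays. A match is a description of these letters, not a site of binding.

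Genes that supply glutamate or hold its receptors in place were set beside the members, from lists drawn up by function. These lists were chosen with earlier results of these data known, so their shares are description only. Of 10 genes of glutamate transport and recycling, 0 passed by limma, with a median of 0.03. An unadjusted p under 0.05 was reached by 1 gene, higher in CKO (10%, beside 6.79% of all genes). Glul, the glutamine synthetase of astrocytes, differed by 0.11 (SE 0.0417, adjusted p 0.722) and Slc38a3, a glutamine transporter, by 0.10 (SE 0.0449, adjusted p 0.726). Glul had 11.57 to 11.68 in CKO and 11.50 to 11.55 in WT on the brightest of its 2 probe sets, the only one read.

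Of 23 genes of receptor anchoring and signalling, 0 passed by limma, with a median of -0.01. An unadjusted p under 0.05 was reached by 2 genes, both lower in CKO (8.7%, near the 6.79% of all genes). Camk2b, the beta subunit of calcium/calmodulin-dependent kinase II, had 11.89, 11.69, 12.04 and 11.98 on the CKO arrays, against 12.08, 12.16 and 12.34 on the WT arrays, a difference of -0.29 (SE 0.0916, adjusted p 0.711). Dlg2, the scaffold PSD-93, had 9.85, 9.43, 9.90 and 9.74 on the CKO arrays, against 10.01, 9.97 and 10.40 on the WT arrays, a difference of -0.40 (SE 0.136, adjusted p 0.711). WT 38 was the highest array for both, as it was for Gria4, Grin2b and Grm3, and without it the differences were -0.22 and -0.26. Dlg4, the scaffold PSD-95, had 12.13 to 12.16 on the CKO arrays, against 11.86 on WT 6 and 12.20 and 12.17 on WT 27 and WT 38, so WT 6 was low here as for Cacng7.

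Of 17 other receptor partners, 0 passed by limma, with a median of -0.09. An unadjusted p under 0.05 was reached by 5 genes, 1 higher and 4 lower in CKO (29.4%, beside 6.79% of all genes, 4.17% higher and 2.61% lower). Elfn2, an adhesion protein that binds group III metabotropic receptors across the synapse, had 9.45, 9.51, 9.44 and 9.52 on the CKO arrays, against 9.68, 9.81 and 9.69 on the WT arrays. The groups lay apart, with a difference of -0.25 (SE 0.0453, adjusted p 0.34), and -0.27 without WT 38. Shisa9, which encodes the AMPA receptor auxiliary protein CKAMP44, had 10.61, 10.22, 10.36 and 10.41 on the CKO arrays, against 10.61, 10.83 and 10.97 on the WT arrays. CKO 1 and WT 6 were nearly level, and the difference was -0.40 (SE 0.105, adjusted p 0.694).

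Markers of cell types were read on the same arrays as mean deviations from the 7-array mean. Their lists, too, were chosen with earlier results of these data known. Markers of glutamatergic neurons were present at high signal, with Neurod2 at 13.12 to 13.16 in CKO and 13.06 to 13.21 in WT. As a list of 9 tested of 10, they lay between -0.04 and 0.03 in CKO and between -0.07 and 0.06 in WT. Single genes of the list went both ways. Neurod6 differed by -0.20, while Tbr1 and Bcl11b differed by 0.14 and 0.15, each with groups apart. These 3 of 9 had an unadjusted p under 0.05 by limma (33.3%, beside 6.79% of all genes), and none passed the adjustment. Neurod6 is also the driver's locus, so its signal need not follow the other markers of these neurons. The 7 synapse and neurofilament genes tested lay at -0.01, -0.27, -0.06 and -0.21 on CKO 1, CKO 4, CKO 34 and CKO 43, against 0.08, 0.24 and 0.22 on WT 6, WT 27 and WT 38. An unadjusted p under 0.05 by limma was reached by 4 of the 7, all lower in CKO (57.1%, beside 6.79% of all genes), and none passed the adjustment. Within this list the neurofilament genes Nefl and Nefm differed by -0.98 and -0.77. Of the 5 synaptic vesicle and release genes, Syn2 differed by -0.21 (SE 0.0714, adjusted p 0.711 by limma), Syt1 by -0.19 (SE 0.0673, adjusted p 0.722, groups apart) and Syn1 by -0.08, while Snap25 and Syp differed by 0.02 each. CKO 4 and CKO 43 were the lowest arrays for Nefl, at 8.49 and 8.66, and also for Grid1, Grin3a and Grm3. The part of these genes' cells in the receptor values was not tested.

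Dividing cell markers (10 tested of 11) lay at 0.02 to 0.09 in CKO and at -0.14 to -0.01 in WT, and radial glia and astrocyte markers (12 of 12) at 0.00 to 0.09 and at -0.14 to -0.02. WT 38, which was highest for most receptor classes, was lowest for both lists at -0.14. An unadjusted p under 0.05 by limma was reached by 5 of 10 dividing cell markers (50%) and 2 of 12 radial glia and astrocyte markers (16.7%). All of these were higher in CKO, and none passed the adjustment. Striatal markers (9 tested of 12) lay at 0.21, -0.04, 0.35 and 0.16 on CKO 1, CKO 4, CKO 34 and CKO 43, against -0.17, -0.33 and -0.16 on the WT arrays. All 9 differences were positive, and 6 had an unadjusted p under 0.05 by limma (66.7%, beside 6.79% of all genes). None passed the adjustment. Interneuron markers (10 of 10) lay at 0.16, -0.23, 0.08 and 0.08, against 0.02, -0.09 and -0.02. Within that list Npy and Htr3a differed by -0.51 and -0.60, with groups apart, while Dlx2 and Dlx5 differed by 0.51 and 0.39. These 4 of 10 had an unadjusted p under 0.05 by limma (40%, beside 6.79% of all genes), and none passed the adjustment. Oligodendrocyte lineage, microglia and endothelial markers had median differences of 0.04, 0.01 and 0.03, with 0 of 6, 1 of 7 and 0 of 6 at an unadjusted p under 0.05 by limma. Their part in the receptor values, including those of Grm4 and of Gria4, was not tested. Y-linked genes (3 tested of 4) were low on CKO 43 alone, at -3.64 against 0.32 to 0.72 on the other arrays. The groups were therefore not matched in Y-linked signal.

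**Figure D4:**
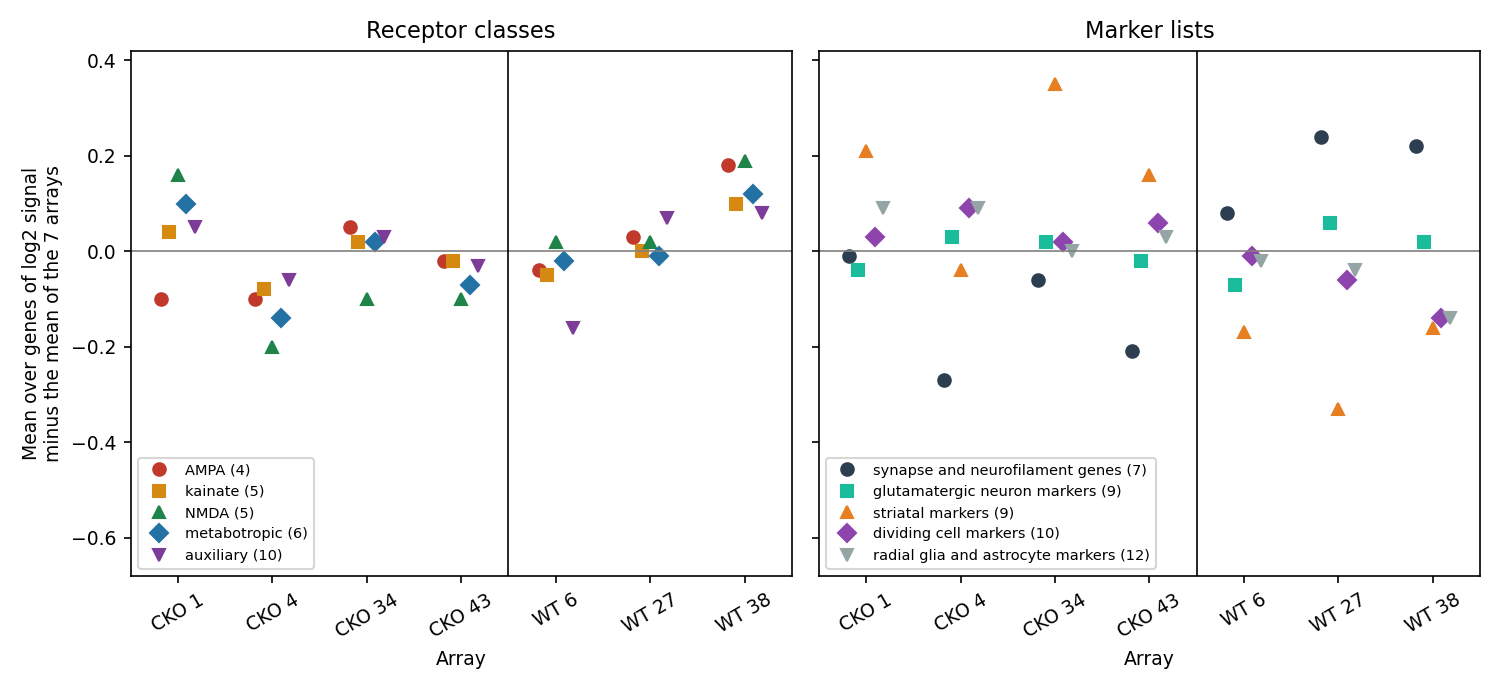
Mean over the tested genes of a list of the log2 signal minus the 7-array mean, on each array, for 5 receptor classes (left) and 5 marker lists (right), with the number of genes in brackets and CKO arrays left of the line. On WT 38 the receptor classes lie between 0.08 and 0.19 and the dividing and glial lists at -0.14, and on WT 6 the auxiliary subunits lie at -0.16. The synapse and neurofilament list is below 0 on all CKO arrays and above 0 on all WT arrays.

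The array identifiers in the labels fall into 3 groups by their leading digits. The first held CKO 1 and CKO 4, the second CKO 34, CKO 43, WT 27 and WT 38, and the third WT 6. The sources used here do not say what these groups stand for. Within the second group the differences of the 4 members with an unadjusted p under 0.05 over all arrays were -0.27 for Grm7, -0.24 for Gria4, -0.16 for Grik1 and 0.12 for Grm4. CKO 1 and CKO 4, which share an identifier group, lay at 0.16 and -0.20 on the NMDA receptor class.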

How the data were processed

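The deposited values are log2 signals, which the submitters' processing notes credit to RMA in Affymetrix Expression Console. The sources used here give no version, background setting or genome build. RMA makes the distributions of the arrays nearly equal, so a change shared by most genes would not be seen. All 7 arrays had a median log2 signal of 8.23. GEO's platform annotation names 1 gene for 21786 of 35468 probe sets, several for 1621 and none for 12061, and only the first kind was used. All 32 measured members matched the same symbol by Entrez identifier in the RefSeq gene table of GRCm38.p6. The brightest probe set by mean over the 7 arrays stood for a gene, and genes below the 25th percentile of all probe sets (6.84) were left out. CKO was compared with WT by limma 3.58.1 in R 4.3.3 (lmFit and eBayes, no covariate, with 3.28 prior and 5 residual degrees of freedom) over 16144 genes, with Benjamini-Hochberg adjustment at 0.05. Errors beside differences are limma's standard errors, and intervals are 95%. No samples of different groups share a number, so nothing was paired. The fit was tested on simulated data with known changes, and it recovered 56.7% of changes of 0.3 and 98.5% of changes of 1. The simulated noise was drawn independently for each gene and array. The test therefore cannot show what the fit would recover from these arrays, where many genes moved together.

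The members and gene lists were chosen with earlier results of these data known. Values on every array were to be given for the brightest member and the 2 members with the smallest p of each class (4 for auxiliary subunits), and 2 genes were to be named from each partner list. Values for the others were added after they were seen. Alternatives were cyclic loess, the filter, the mean of probe sets, a trended robust variance, array weights, the identifier group as a fixed block and alone, Y-linked signal as a covariate, a threshold of 0.1 and leaving out each array. The number of arrays limits the precision. The background correction could not be varied from these values.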

Additional observations from a re-analysis of the deposited data

How the results depend on the processing

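No member passed an adjusted p of 0.05 by limma under any of 16 alternatives, nor a threshold of 0.1, and the lowest adjusted p was 0.358, for Grm4 without WT 38. The number of members with an unadjusted p under 0.05 by limma was 4 (12.9%, beside 6.79% of all genes). It was 7 without CKO 1 (22.6%, beside 4.94%) and 2 without WT 27 (6.45%, beside 10.8%). With the identifier group as a fixed block it was 2 (6.45%, beside 3.78%). With the filter at the 50th percentile it was 1 of 25 (4%, beside 7.44%). That filter left out Grm7, Grm4 and Grik1, which were therefore not tested there. Over all genes 4 passed, against 6 without CKO 1, 1 without any other single array or with cyclic loess, array weights or the Y-linked covariate, and 0 with the block or within the identifier group of both genotypes. Each class median moved by less than the within-group spread of the class mean between arrays. Leaving out 1 array can hardly move a median by more than that, so this comparison cannot show stability. The kainate and auxiliary medians, 0.01 over all arrays, were -0.04 without WT 6. The metabotropic median of -0.02 was 0.02 without WT 38. Medians of the AMPA, delta and NMDA classes stayed negative throughout. Of the 31 tested members 14 kept their sign in every alternative that tested them. Among these were Grm7 (-0.32 to -0.21 when each array was left out), Gria4 (-0.31 to -0.14), Grik1 (-0.15 to -0.09), Grin2a (-0.44 to -0.19) and Grm4 (0.13 to 0.22). Of these named genes, Gria4 alone passed the filter at the 50th percentile. The remaining tested members changed sign at small values, none past the threshold, and the cause was not tested. With the identifier group as a fixed block, and likewise within the group that held both genotypes, differences turned to -0.01 for Gria1, -0.02 for Grik5, -0.03 for Grin2c, 0.00 for Grm2, -0.04 for Grm6, -0.06 for Cacng5, -0.04 for Cacng7, -0.01 for Cacng8, -0.03 for Cnih2, -0.03 for Cnih3 and -0.01 for Neto1; both settings give the same difference, since the other 2 groups held 1 genotype each. With cyclic loess Gria1 turned to 0.00. When each array was left out, the differences that changed sign ran from -0.04 to 0.04 for Gria1, -0.09 to 0.02 for Gria3, -0.15 to 0.04 for Grik2, -0.02 to 0.08 for Grik3, -0.02 to 0.05 for Grik4, -0.04 to 0.06 for Grik5, -0.14 to 0.03 for Grm5, -0.14 to 0.01 for Cacng3, -0.04 to 0.04 for Cacng5, -0.04 to 0.17 for Cacng7, -0.04 to 0.07 for Cacng8, -0.02 to 0.09 for Cnih2, -0.03 to 0.05 for Cnih3 and -0.09 to 0.12 for Neto1. No paired analysis was possible because no samples of different groups share a number. No CKO array stood out from the other 3 by Dixon's test for any member, and the 3 WT arrays are too few for that check.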

Other observations

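Several partners of AMPA receptors outside the receptor families differed by more than most members, and the following were chosen after their values were seen. Shisa genes outside the list of other receptor partners are not given here. Within that list all 3 Shisa genes measured, which encode auxiliary proteins of AMPA receptors, had a negative difference. It was -0.40 for Shisa9, -0.20 for Shisa6 (SE 0.0819, adjusted p 0.726 by limma) and -0.15 for Shisa7 (SE 0.0737, adjusted p 0.726). Shisa6 had 10.23, 10.17, 10.01 and 10.09 on CKO 1, CKO 4, CKO 34 and CKO 43, against 10.19, 10.51 and 10.29 on WT 6, WT 27 and WT 38, so WT 6 lay among the CKO arrays. Gsg1l, another AMPA receptor auxiliary protein, lay the other way, at 9.84, 9.87, 9.73 and 9.72 on the CKO arrays, against 9.48, 9.70 and 9.71 on the WT arrays, a difference of 0.16 (SE 0.0681, adjusted p 0.726). Cbln1, a secreted ligand of delta receptors, had 9.09, 8.94, 8.91 and 8.95 on the CKO arrays, against 9.06, 9.49 and 9.29 on the WT arrays, a difference of -0.31 (SE 0.0933, adjusted p 0.711), while Cbln2 and Cbln4 differed by 0.13 and -0.10. None of these passed the adjustment over all genes.

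The scaffold gene Shank2 had 3 probe sets, and only the brightest was read. It had 9.73 to 9.78 on the CKO arrays, against 9.56, 9.44 and 10.23 on WT 6, WT 27 and WT 38. Its difference was 0.01 over all arrays and 0.26 without WT 38 (adjusted p 0.266 by limma). Like Grik2 and Grin2b, it was set apart on that array.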
